A study of Mus musculus with 6 samples.

Results

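The Zfp genes of the mouse encode zinc finger proteins, and the regions described here are the 1 kb tiles that overlap RefSeq protein-coding genes of mm10 (GRCm38.p6) whose symbol is Zfp followed by digits alone. On chromosomes 1 to 19 there were 360 such genes among 20665 protein-coding genes, and 354 of them overlapped at least 1 tile. Zfp968, Zfp965, Zfp966, Zfp967, Zfp973 and Zfp433 overlapped none. Together they held 9865 of the 1954255 tiles measured, of which 844 also overlapped an annotated gene of another name. A gene was called clustered when another Zfp gene lay within 100 kb, which gave 208 clustered genes in 50 clusters, with 3677 tiles, and 152 single genes, with 6188 tiles.

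The study measured DNA methylation in endothelial cells sorted by flow cytometry from the lungs of Dnmt3a knockout (KO) and wild-type (WT) mice, with 3 samples of each genotype. Tagmentation-based whole-genome bisulfite sequencing was used, a bisulfite method for small amounts of DNA. The labels give the genotypes as ko and wt only, with no knockout allele, promoter driving a Cre, age, sex or number of animals per sample, and a p-value therefore reflects how these 6 samples vary, whether by animal or by technique. Values are methylation levels in percent per tile, and since no read counts stand beside them their depth is unknown.

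Over all tiles the mean level was 63.7 ± 0.140% in KO and 69.0 ± 0.451% in WT (SD, n = 3 each). DNA carries no RNA level, so the cell type label was checked on the end of each marker gene that had the lower level. Averaged over 10 genes per list, these ends were at 10.3% in KO and 15.6% in WT for endothelial markers, 18.2% in KO and 29.6% in WT for mesenchymal, 29.0% in KO and 37.7% in WT for epithelial, and 48.8% in KO and 57.5% in WT for leukocyte markers. The endothelial ends were thus the least methylated of the lists by the mean in both genotypes. By the median they were at 9.83% in KO and 16.6% in WT, beside 10.2% in KO and 25.4% in WT for mesenchymal ends. In KO these 2 lists were thus close. All 4 lists had lower means in KO, and the part of other cell types in the values below was not tested.

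DNMT3A is an enzyme that places methyl groups on CpG sites that carry none, whereas DNMT1 copies methylation at replication. Many Zfp proteins carry a KRAB domain beside an array of DNA-binding fingers, and through TRIM28 (KAP1) and the histone methyltransferase SETDB1 they silence transposable elements. Genes of this kind have multiplied in tandem, so they lie in clusters, and their fingers are as a rule encoded by one long last exon. The symbol is not one family, however. Zfp36 encodes tristetraprolin, which binds RNA, and single genes such as Zfp423, Zfp521 and Zfp536 encode developmental regulators that stand outside the KRAB group.

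The start regions of 6 genes, as RefSeq gives them for GRCm38.p6, show what a Zfp gene start looks like in sequence and are chosen to span few and many CpG sites and low and high methylation. Each covers 250 bases before and 50 bases after the annotated start, 300 in all, written 5′ to 3′ on the strand of the gene with every CG in capitals. The annotated start of the window lies 268 bases inside the gene span for Zfp13 and 583 for Zfp37. The windows are chr17:23599438-23599737 (minus strand), chr3:36150830-36151129 (plus), chr4:62208497-62208796 (minus), chr7:29906483-29906782 (minus), chr17:37000913-37001212 (plus) and chr5:109996260-109996559 (plus).
Zfp13: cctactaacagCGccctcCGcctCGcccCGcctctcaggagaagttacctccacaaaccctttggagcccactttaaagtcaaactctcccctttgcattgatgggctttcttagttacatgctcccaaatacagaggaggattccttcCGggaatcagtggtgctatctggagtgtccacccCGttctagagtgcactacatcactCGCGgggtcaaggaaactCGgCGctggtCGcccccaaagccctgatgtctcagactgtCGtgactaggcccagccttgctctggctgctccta
Zfp267: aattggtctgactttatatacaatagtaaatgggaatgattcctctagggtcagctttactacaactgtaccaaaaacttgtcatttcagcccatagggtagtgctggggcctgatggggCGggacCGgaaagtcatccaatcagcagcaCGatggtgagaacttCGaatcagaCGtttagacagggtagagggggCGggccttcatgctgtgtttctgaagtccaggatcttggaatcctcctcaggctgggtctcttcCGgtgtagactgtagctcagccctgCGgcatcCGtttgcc
Zfp37: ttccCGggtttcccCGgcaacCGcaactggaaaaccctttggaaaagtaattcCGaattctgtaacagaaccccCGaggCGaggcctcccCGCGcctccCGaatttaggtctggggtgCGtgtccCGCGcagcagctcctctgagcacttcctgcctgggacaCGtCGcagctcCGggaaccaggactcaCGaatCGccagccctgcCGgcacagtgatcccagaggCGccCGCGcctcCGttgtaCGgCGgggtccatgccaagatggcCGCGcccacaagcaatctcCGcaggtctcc
Zfp27: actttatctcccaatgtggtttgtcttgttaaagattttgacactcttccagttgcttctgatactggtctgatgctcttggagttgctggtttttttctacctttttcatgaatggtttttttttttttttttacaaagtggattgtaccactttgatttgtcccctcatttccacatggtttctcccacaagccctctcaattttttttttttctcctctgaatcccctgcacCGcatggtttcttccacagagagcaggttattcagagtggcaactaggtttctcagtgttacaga
Zfp57: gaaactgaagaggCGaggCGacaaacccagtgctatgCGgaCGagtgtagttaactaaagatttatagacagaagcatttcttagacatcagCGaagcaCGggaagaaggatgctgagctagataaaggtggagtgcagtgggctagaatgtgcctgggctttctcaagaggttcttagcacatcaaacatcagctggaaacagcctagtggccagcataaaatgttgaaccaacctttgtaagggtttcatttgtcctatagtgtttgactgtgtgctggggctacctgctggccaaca
Zfp932: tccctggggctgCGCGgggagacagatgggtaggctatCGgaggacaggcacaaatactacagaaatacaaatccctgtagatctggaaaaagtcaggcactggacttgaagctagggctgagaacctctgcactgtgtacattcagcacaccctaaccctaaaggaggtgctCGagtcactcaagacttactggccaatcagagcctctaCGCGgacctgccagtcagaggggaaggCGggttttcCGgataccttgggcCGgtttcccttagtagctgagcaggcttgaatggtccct

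Zfp37 had 27 CG in this window, Zfp13 had 12, Zfp267 and Zfp932 had 9 each, Zfp57 had 6 and Zfp27 had 1. The tiles under the Zfp13 window were at 1.04 ± 1.09% in KO and 4.48 ± 0.979% in WT (SD, n = 3 each, as throughout). Those under the Zfp267 window were at 0.716 ± 0.449% in KO and 1.34 ± 1.32% in WT, and those under Zfp37 at 0.735 ± 0.580% in KO and 0.701 ± 0.290% in WT. These windows were thus almost free of methylation in both genotypes. Zfp27, with its single CG, was as low, at 2.32 ± 0.582% in KO and 3.58 ± 1.88% in WT. The Zfp57 window was methylated, at 72.3 ± 3.56% in KO and 81.8 ± 5.25% in WT. Zfp57 encodes a KRAB protein that keeps methylation at imprinted regions.

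In 4 Zfp genes a single sample stood more than 40 percentage points from both others of its group in at least 1 tile, and these are given here because they hold the largest positive differences reported below. WT replicate 2 did so in 11 Zfp tiles, in Zfp970, Zfp972 and Zfp971, all on chromosome 2. In the body of Zfp972 the KO samples had 72.8%, 81.2% and 74.4%, against 82.9%, 1.6e-08% and 61.8% in the WT samples. The value of WT replicate 2 was thus near 0 where the other 5 samples were well methylated, and the same held along Zfp971. It was as low as 1.22e-35% in a tile of the Zfp971 flank and flat along Zfp970. Such a level is no ratio of read counts, and no tile of the table was at exactly 0 in any sample, so the deposited levels are estimates made in a way not given in the sources used here. Levels above 0 and under 0.0001% occurred in 2 tiles of KO replicate 2, 6 of KO replicate 3 and 42 of WT replicate 2. Whether reads covered these tiles is unknown, so the values cannot be read as an absence of methylation. KO replicate 3 stood apart in Zfp932, a clustered gene whose protein silences endogenous retroviruses. Around the Zfp932 start the KO samples had 27.3%, 19.7% and 100.0%, against 26.1%, 30.6% and 24.0% in the WT samples. The difference was 22.1 points and was not called, with an adjusted p of 0.290, and without KO replicate 3 it was -3.37 points. The value of KO replicate 3 there is the upper limit of the scale, over the window whose sequence is printed above, and the same doubt applies to it.

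**Figure D1:**
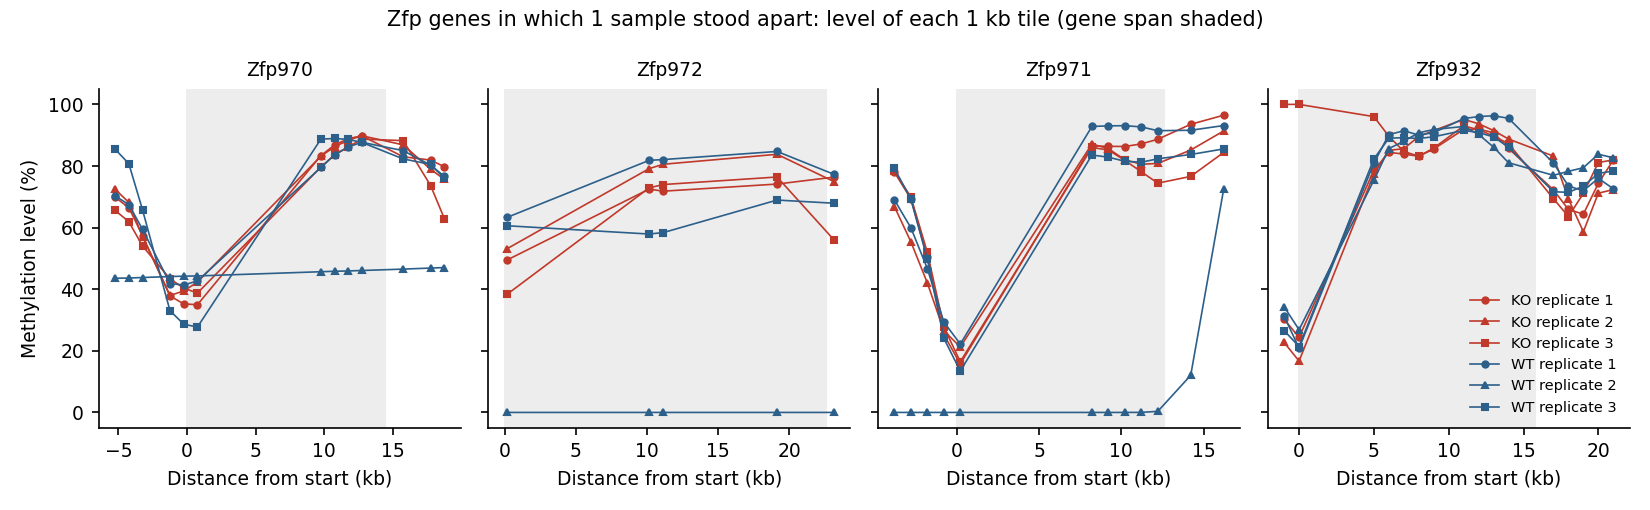
Methylation level (percent) of each 1 kb tile against the distance from the gene start (kb) in Zfp970, Zfp972, Zfp971 and Zfp932, with one line per sample, KO in red and WT in blue, and the gene span shaded. WT replicate 2 (blue triangles) stays flat near 46% in Zfp970 and near 0 within the spans of Zfp972 and Zfp971. Downstream of Zfp971 it rises to 72.4%. KO replicate 3 (red squares) begins at 100.0% at the start of Zfp932.

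Zfp genes had a lower mean level in KO than in WT. In DNA from many cells, fewer methylated cells and less methylation per cell cannot be told apart. Tiles of Zfp genes averaged 67.0 ± 0.169% in KO and 73.0 ± 0.372% in WT. In clustered genes the averages were 70.2 ± 0.0769% in KO and 73.8 ± 0.381% in WT, which differ by -3.65 points. In single genes they were 65.1 ± 0.236% in KO and 72.5 ± 0.368% in WT, which differ by -7.39 points. The 3 KO samples lay below the 3 WT samples in each of these averages, and the clustered and single differences were not tested against each other.

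A tile was called when limma gave a Benjamini-Hochberg adjusted p below 0.05 over all tiles and the groups differed by at least 10 points. By this rule 1831 Zfp tiles were lower in KO and 6 were higher. That is 18.6% lower, beside 16.2% lower and 0.0796% higher among all tiles, and 19.4% lower among the tiles of protein-coding genes. The share was 8.54% in clustered genes (314 tiles), 10.3% in the spaces between genes of clusters and 24.5% in single genes (1517 tiles). Every sample was also centred on its median tile, which removes a shift of -4.89 points between the groups. That left 838 Zfp tiles lower and 72 higher, beside 129769 lower and 18197 higher of all 1954255 tiles. With samples scaled to one mean level, 813 Zfp tiles were lower and 205 higher, beside 128517 lower and 30656 higher of all tiles.

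The 10 single genes with most called tiles held 55.0% of the calls in single genes. Zfp423, a partner of EBF factors in fat, nerve and bone development, had 174 of its 295 tiles lower in KO. Its tiles averaged 57.8 ± 0.224% in KO and 73.5 ± 0.879% in WT. Zfp521, a close relative of Zfp423, had 151 of 275 tiles lower, with 60.4 ± 0.798% in KO and 74.8 ± 1.12% in WT. Zfp710 had the highest share of these 10, 47 of 68 tiles, with averages of 36.0 ± 2.41% in KO and 52.6 ± 1.43% in WT. Zfp536, a repressor of neuronal differentiation and the longest of them, had 59 of 447 tiles lower. Among all 354 Zfp genes with a tile, 139 had no called tile, 90 of them clustered and 49 single.

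Along the gene, both kinds had a dip of methylation at the start and a plateau in the body, and the differences between genotypes were small at the bottom of the dip and larger on its flanks. In the first of 20 equal bins of the gene span, clustered genes were at 22.0% in KO and 24.6% in WT, and single genes at 22.0% in KO and 25.3% in WT. From 1 to 2 kb upstream of the start the levels were 64.3% in KO and 70.2% in WT in clustered genes, and 55.1% in KO and 64.6% in WT in single genes. In bin 16 of the span, clustered genes reached 79.9% in KO and 83.5% in WT, where other protein-coding genes were at 68.7% in KO and 74.6% in WT. In that bin clustered Zfp genes thus had the higher mean in both genotypes, and the genotypes differed by -3.53 points in them and by -5.87 points in other genes, which was not tested.

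**Figure D2:**
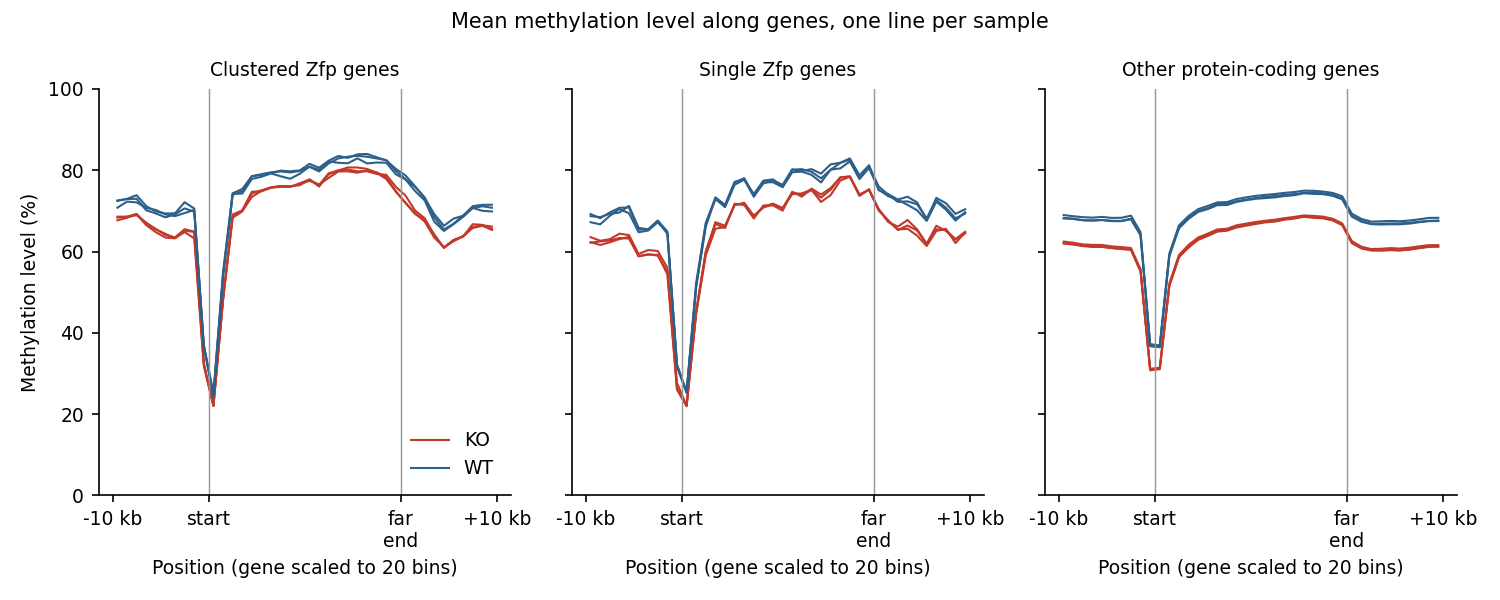
Mean methylation level (percent) along clustered Zfp genes, single Zfp genes and other protein-coding genes, from 10 kb upstream to 10 kb downstream, with the gene span scaled to 20 bins and one line per sample, KO in red and WT in blue. KO lines run below WT lines in each panel, and the gap in the body is narrowest in the clustered genes, -3.53 points in bin 16 against -5.68 in single genes.

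At gene starts, taken as the tiles within 1000 bp on either side of the start, 28 of 291 Zfp genes were lower in KO and 0 were higher, beside 17.4% lower and 0.0373% higher among all protein-coding genes. Among the Zfp starts 16 of 175 clustered and 12 of 116 single genes were lower. The median difference over Zfp starts was -4.42 points, beside -4.54 points over all genes, so the 2 medians were close although fewer Zfp starts passed the 10-point minimum. Without that minimum, 112 Zfp starts were lower at an adjusted p below 0.05. The share of all starts at this threshold is not given here, so the count does not compare Zfp starts with others. Centring left 7 Zfp starts lower and 0 higher, beside 1138 lower and 111 higher of all 16077 starts. Scaling left 12 lower and 0 higher, beside 1612 lower and 100 higher. Strand was known for 301 of the 360 genes, and the other 59, among them the 11 of chromosome 18, have no start or far end here. The start is the end of the gene span on that strand. In 38 Zfp genes, among them Zfp217, Zfp428, Zfp976, Zfp423 and Zfp536, no RefSeq start sequence lay within 1000 bp of it. Of the other 253 Zfp starts, 19 were called lower, or 7.51%. Among all protein-coding genes with a start sequence that near, 2321 of 14445 starts were lower, or 16.1%.

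The clustered Zfp13 had the largest called difference among clustered starts. Its start was at 5.25%, 2.32% and 3.20% in the KO samples, against 25.9%, 29.6% and 27.0% in the WT samples. The genotypes were far apart, by -23.9 points with an SE of 1.30 and an adjusted p of 1.24e-06, while the tile under its printed window was below 6% in all 6 samples. The single Zfp217 encodes a repressor in complexes with CtBP and CoREST. The span end taken as its start had 44.7%, 47.0% and 41.7% in the KO samples, against 69.2%, 73.8% and 75.9% in the WT samples. The difference was -28.5 points with an SE of 2.66 and an adjusted p of 2.83e-05. Zfp428 had 14.1 ± 6.06% in KO and 34.1 ± 2.04% in WT, and Zfp976 had 36.7 ± 2.50% in KO and 54.7 ± 2.22% in WT. Zfp618, whose start rests on 1 tile, had 33.0 ± 3.48% in KO and 52.2 ± 6.18% in WT. In each of these genes the highest KO sample was below the lowest WT sample, as in 152 of the 291 Zfp starts and in 55.3% of all starts.

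Zfp267, Zfp37 and Zfp27, whose windows printed above were nearly unmethylated, were also lower in KO over the wider start. Zfp267 had 4.27 ± 2.05% in KO and 19.4 ± 3.45% in WT, Zfp37 had 18.7 ± 0.598% in KO and 30.6 ± 2.37% in WT, and Zfp27 had 20.8 ± 1.52% in KO and 31.5 ± 2.52% in WT. The difference thus lay in tiles beside the start and not in the tile under the printed window. For Zfp267 the call ended when 500 bp on either side were taken, with a difference of -0.62 points. Zfp423 was not called over 500 bp either, with 10.2 ± 1.13% in KO and 23.8 ± 4.03% in WT over 1000 bp and a difference of -1.97 points over 500 bp.

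The number of CG in the 300-base start region was known for 253 Zfp genes with a start value, with a median of 13, beside 15 over 14445 protein-coding genes. Few Zfp genes had a CG-poor start. Starts with 0 to 5 CG made up 12.3% of Zfp genes and 30.0% of all genes. Zfp starts with 0 to 5 CG averaged 44.4 ± 0.552% in KO and 48.0 ± 1.73% in WT, those with 6 to 15 CG 31.4 ± 0.538% in KO and 35.6 ± 0.165% in WT, and those with 16 or more 23.8 ± 0.293% in KO and 28.9 ± 0.201% in WT. Classes with more CG had lower mean levels in both genotypes. Of these 3 classes, 2 of 31, 6 of 110 and 11 of 112 starts were called lower, beside 13.9%, 23.9% and 13.9% of all genes in the same classes.

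At far ends, the tiles within 1000 bp of the last base, 41 of 289 Zfp genes were lower in KO and 0 higher, beside 20.8% lower and 0.0561% higher among all genes. They were 20 of 173 clustered and 21 of 116 single genes. Zfp536 had the largest difference, with 39.0%, 23.2% and 25.3% in the KO samples, against 63.4%, 59.5% and 60.7% in the WT samples. That is -32.0 points, with an SE of 3.52 and an adjusted p of 6.63e-06, although its start differed by only -5.32 points, at 8.98 ± 0.681% in KO and 14.3 ± 2.92% in WT. Zfp423 had an unmethylated far end in KO, at 2.74%, 1.01% and 3.50%, against 30.3%, 29.6% and 26.1% in the WT samples. Its difference was -26.2 points, with an SE of 1.46 and an adjusted p of 6.36e-09.

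Among clustered genes Zfp579 had the largest far-end difference, with 47.7 ± 0.301% in KO and 74.0 ± 3.60% in WT. Zfp719 had 72.0 ± 3.65% in KO and 90.0 ± 3.98% in WT, and Zfp786 had 63.7 ± 2.06% in KO and 81.9 ± 3.99% in WT. The single Zfp957 had 59.1 ± 3.75% in KO and 82.5 ± 0.268% in WT. Groups did not overlap in any of these 4 genes, beside 49.2% of all far ends in which each KO sample was below each WT sample. For Zfp786 the difference was -6.39 points over 500 bp, under the minimum of 10. Centring gave 13 Zfp far ends lower and 1 higher, beside 1430 lower and 152 higher of all 16038 far ends. Scaling gave 15 lower and 3 higher, beside 1499 lower and 194 higher. The most positive far end, Zfp971 with 23.6 points and an adjusted p of 0.229, was the one with WT replicate 2 near 0, and without that sample it was at -5.29 points. Without WT replicate 1, by contrast, it was called higher, at 40.7 points with an adjusted p of 0.0394.

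Bodies, the tiles within a gene that stay clear of both ends by 1000 bp, had values for 329 Zfp genes, and a called body had an adjusted p below 0.05 and a difference of at least 5 points. By this rule 117 Zfp bodies were lower in KO and 0 higher, which is 35.6%, beside 53.3% lower and 0.013% higher among all protein-coding genes. Of clustered genes 56 of 194 were lower and of single genes 61 of 135. In 221 of the 329 bodies all KO samples were below all WT samples, beside 81.1% of all bodies. The median difference was -3.21 points in clustered genes, -4.52 in single genes and -5.37 over all genes. The number and direction of the calls depended on the scaling. After centring 27 Zfp bodies were lower, 7 clustered and 20 single, and 8 were higher. Over all 15364 bodies 2882 were then lower and 306 higher. After scaling to one mean level 25 Zfp bodies were lower and 54 higher, 35 of these 54 clustered. Over all bodies 2646 were then lower and 881 higher.

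**Figure D3:**
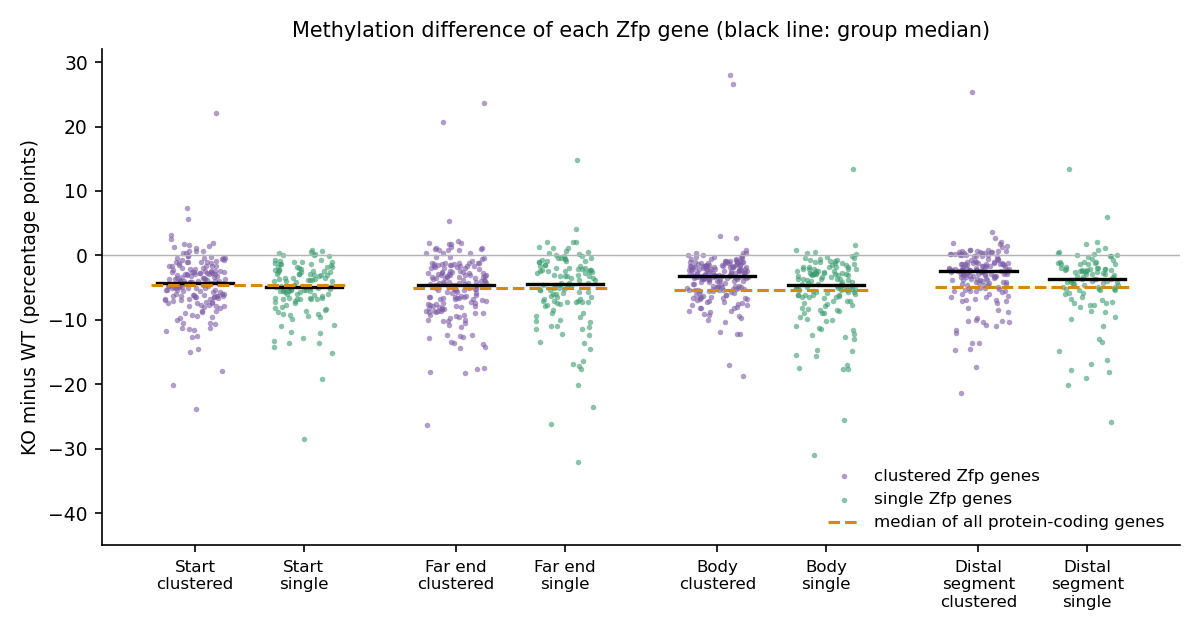
Difference in methylation, KO minus WT in percentage points, of each Zfp gene at its start, far end, body and distal segment, with clustered genes in purple, single genes in green, black lines at the group medians and dashed lines at the median of all protein-coding genes. Clustered bodies have a median of -3.21 and single bodies of -4.52, both nearer to 0 than the dashed line at -5.37, and the few genes above 20 points are those in which 1 sample stood apart.

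The single Zfp467, a regulator of the choice between bone and fat cells, had the largest body difference. Its body was at 41.8%, 43.4% and 38.4% in the KO samples, against 74.7%, 72.1% and 69.6% in the WT samples. The difference was -31.0 points with an SE of 1.73 and an adjusted p of 8.85e-06. It lay mainly in the middle of the gene. The tile at chr6:48438001-48439000 had 2.85 ± 1.69% in KO and 76.3 ± 1.74% in WT, and its neighbour, chr6:48439001-48440000, had 2.49 ± 3.15% in KO and 75.3 ± 4.37% in WT. These tiles were as unmethylated in KO as the gene's start was in both genotypes, at 1.51 ± 2.11% in KO and 0.533 ± 0.285% in WT in the first tile of the gene.

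**Figure D4:**
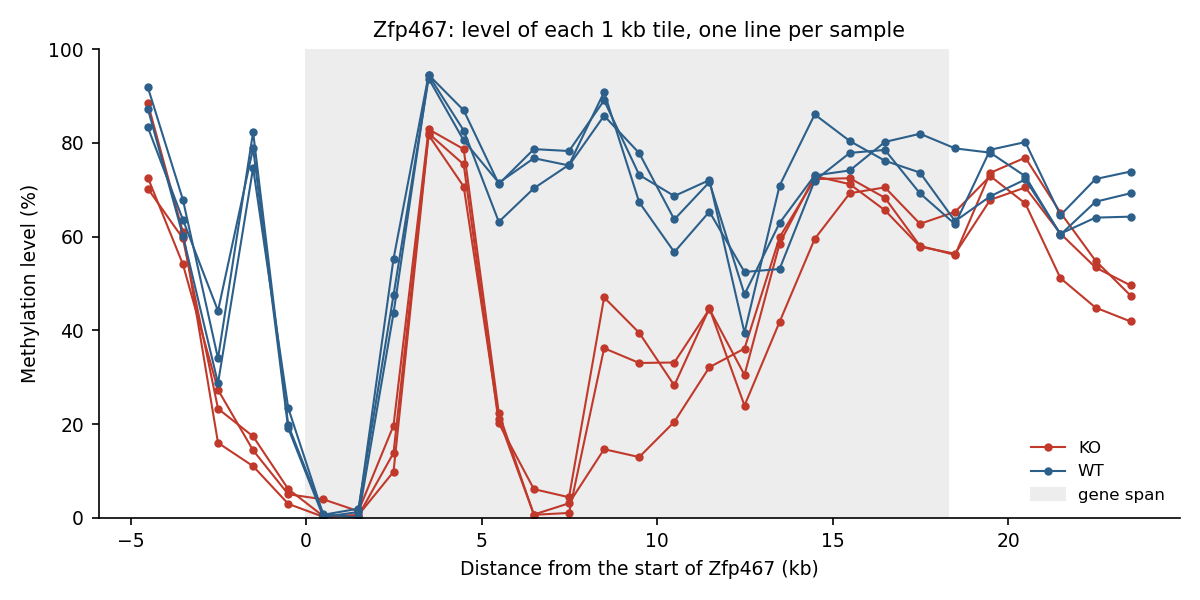
Methylation level (percent) of each 1 kb tile against the distance from the start of Zfp467 (kb), with one line per sample, KO in red and WT in blue, and the gene span shaded. The 6 samples meet near 0 at the start, and between 5 and 12 kb the KO samples lie far below the WT samples, at 2.85% in KO and 76.3% in WT in the tile centred at 7.49 kb.

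Zfp46, also single, had a body at 42.9 ± 2.34% in KO and 68.5 ± 1.31% in WT, or -25.6 points, with an adjusted p of 8.51e-06. Zfp219, which encodes a partner of SOX9 in cartilage, had 33.3 ± 2.57% in KO and 51.0 ± 0.481% in WT. Among clustered genes Zfp689 had 71.4 ± 3.22% in KO and 90.1 ± 1.48% in WT, Zfp628 had 67.0 ± 5.09% in KO and 84.1 ± 1.94% in WT, and Zfp9 had 73.4 ± 3.16% in KO and 85.6 ± 0.252% in WT. The bodies of Zfp689, Zfp628 and Zfp9 thus had KO means above 65%, and those of Zfp467, Zfp46 and Zfp219 below 45%. The long single bodies of Zfp536, Zfp423 and Zfp521 differed by less than those of Zfp467, Zfp46 and Zfp219. The longest, Zfp536, had 60.6 ± 0.339% in KO and 65.5 ± 0.645% in WT over 443 tiles, which is -4.93 points and not called. Zfp423 had 58.5 ± 0.216% in KO and 74.2 ± 0.878% in WT over 291 tiles, and Zfp521 had 60.7 ± 0.813% in KO and 75.3 ± 1.12% in WT over 271 tiles.

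Called bodies were also counted by level. The mean over the 6 samples was 80% or more in 49.0% of clustered, 29.6% of single and 17.1% of all protein-coding bodies. In that range 21 of 135 Zfp bodies were lower, or 15.6%, beside 14.5% of all genes, with median differences of -2.67 and -3.13 points. From 50 to 80% the Zfp share was below that of all genes. From 50 to 70% it was 41 of 80 bodies or 51.2% beside 59.0%, with 16 of 37 in clustered and 25 of 43 in single genes, and from 70 to 80% it was 51 of 108 bodies or 47.2% beside 63.1%, with 23 of 60 in clustered and 28 of 48 in single genes. Zfp bodies of 30 or more tiles differed most between the kinds, with 2 of 14 clustered and 30 of 42 single bodies lower, beside 57.5% of all genes. In shorter bodies the kinds were closer. From 10 to under 30 tiles 33 of 116 clustered (28.4%) and 19 of 62 single bodies (30.6%) were lower, beside 51.0% of all genes. Under 10 tiles it was 21 of 64 clustered (32.8%) and 12 of 31 single bodies (38.7%), beside 49.3%.

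Distance to the nearest unmethylated stretch was set beside the calls, with a valley defined as a tile with a mean under 10% over the 6 samples. Clustered tiles lay nearer to one, at a median of 10 kb, than single tiles at 25 kb and all tiles at 67 kb. The shares of called tiles are given by distance, with no test between classes. From 6 to 20 kb away 6.87% of clustered, 22.5% of single and 24.9% of all tiles were lower, and over 50 kb away 1.10%, 24.4% and 9.60%. Next to a valley the shares were 28.6% of clustered, 46.7% of single and 49.1% of all tiles, the highest share of each of these 3 classes at any distance.

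Each gene span was cut into 3 equal segments, and the distal segment is the one farthest from the start. Distal segments, where the finger exon of a KRAB gene usually lies, were lower in KO in 67 of 271 Zfp genes and higher in 0, beside 46.5% lower and 0.126% higher among all genes. They were 38 of 168 clustered and 29 of 103 single genes, with medians of -2.47 and -3.64 points, beside -4.90 over all genes. The proximal segment was lower in 94 of 244 Zfp genes, beside 56.6% of all genes, and the middle segment in 80 of 269, beside 47.2%. After centring 19 Zfp distal segments were lower and 25 higher, beside 1860 lower and 379 higher of all 11922 distal segments. After scaling 19 were lower and 82 higher, 59 of these 82 clustered, beside 1742 lower and 1272 higher over all genes. Of the 269 genes with both values, 50 were lower in body and distal segment, 36 in the body alone and 17 in the distal segment alone.

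Zfp30, a KRAB gene of the largest cluster, had the largest distal-segment difference among clustered genes. Its distal segment was at 42.1%, 46.0% and 48.0% in the KO samples, against 65.4%, 69.9% and 64.8% in the WT samples. The difference was -21.3 points with an SE of 2.07 and an adjusted p of 0.000186, while its start, at 45.0 ± 2.36% in KO and 43.7 ± 1.89% in WT, had an adjusted p of 0.647. Zfp239 had 63.2 ± 1.75% in KO and 80.6 ± 4.61% in WT, and Zfp672 had 66.8 ± 1.96% in KO and 81.5 ± 1.41% in WT. Among single genes Zfp46 had 46.5 ± 2.14% in KO and 72.3 ± 3.59% in WT, Zfp219 had 40.1 ± 1.31% in KO and 60.1 ± 1.12% in WT, and Zfp710 had 44.9 ± 0.661% in KO and 63.9 ± 1.10% in WT. The highest KO sample was below the lowest WT sample in all 6 genes, as in 126 of the 271 Zfp genes and in 67.0% of all genes. Zfp971 had the most positive value, 25.4 points with an adjusted p of 0.334, and without WT replicate 2 it was at -3.71 points.

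Whether the distal segment differed from the rest of the same gene was tested as a step, the level of the distal segment minus that of the remaining tiles at least 1000 bp from the start. The step was lower in KO in 6 of 266 Zfp genes and higher in 12, beside 4.22% lower and 7.56% higher among all genes. Of clustered genes 4 had a lower and 3 a higher step, and of single genes 2 a lower and 9 a higher one. The total of 18 depended on the fit, with 7 without WT replicate 2 and 8 on the M value scale. Over all genes the main fit had 500 lower and 895 higher steps. Without WT replicate 2 these were 301 and 471, and on the M value scale 245 and 299. In Zfp282 the step was -17.9, -10.4 and -12.4 points in the KO samples, against -1.76, 0.697 and -0.333 in the WT samples, with an adjusted p of 0.0116. The distal segment of Zfp282 was thus less methylated than the rest of the gene in KO, and near it in WT. Zfp467 had the opposite pattern, with a step of 25.7 ± 8.08 points in KO and -4.63 ± 0.959 in WT and an adjusted p of 0.00570, its low tiles being in the middle. For Zfp30 the step was -26.6 ± 3.05 points in KO and -15.1 ± 1.64 in WT, with an adjusted p of 0.0140, which was 0.0524 without WT replicate 2 and 0.0794 on the M value scale. For Zfp267 it was 16.8 ± 2.91 points in KO and 7.09 ± 1.04 in WT, with an adjusted p of 0.0140, which was 0.0521 without WT replicate 2, 0.0502 without WT replicate 3 and 0.0571 on the M value scale.

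Chromosome 7 held 90 of the 360 Zfp genes and 73 of the 208 clustered ones. Clusters were compared by the mean over the tiles of their Zfp genes. The largest, from Zfp84 to Zfp146 on chromosome 7 (29768552 to 30169775, 15 genes), had 72.5 ± 0.156% in KO and 76.9 ± 0.349% in WT, with 33 of 266 tiles and 3 of 15 bodies called lower. The one from Zfp712 to Zfp748 on chromosome 13 (67038594 to 67553152, 14 genes) was at 70.9 ± 0.269% in KO and 73.9 ± 0.530% in WT, with 14 of 265 tiles and 1 of 14 bodies lower. On chromosome 17 the cluster from Zfp677 to Zfp943 (21383707 to 21994366, 13 genes) was at 72.0 ± 0.415% in KO and 75.4 ± 0.824% in WT, with 4 of 13 bodies lower. These clusters, and the fourth in size, Zfp180 to Zfp94 on chromosome 7 (24081877 to 24316698, 10 genes) at 70.4 ± 0.273% in KO and 74.9 ± 0.515% in WT, were all within 5 points of the WT level.

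Among the 15 clusters of at least 5 genes the difference ranged from -10.2 to -1.40 points, and in each of the 15 all KO samples were below all WT samples. The group from Zfp628 to Zfp580 on chromosome 7 was at the lower end, with 53.8 ± 0.659% in KO and 64.0 ± 0.645% in WT and 21 of 51 tiles lower, and the one from Zfp978 to Zfp933 on chromosome 4 at the other, with 63.0 ± 0.157% in KO and 64.4 ± 0.290% in WT and 2 of 318 tiles lower. Over all 49 clusters with a tile, KO samples were all below WT samples in 43. Cluster values average many tiles, as do gene bodies, where the share over all genes was 81.1%, whereas it was 31.6% over the individual tiles of the whole table. The largest positive value, 9.91 points in Zfp972 to Zfp931 on chromosome 2, was -3.42 points without WT replicate 2.

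**Figure D5:**
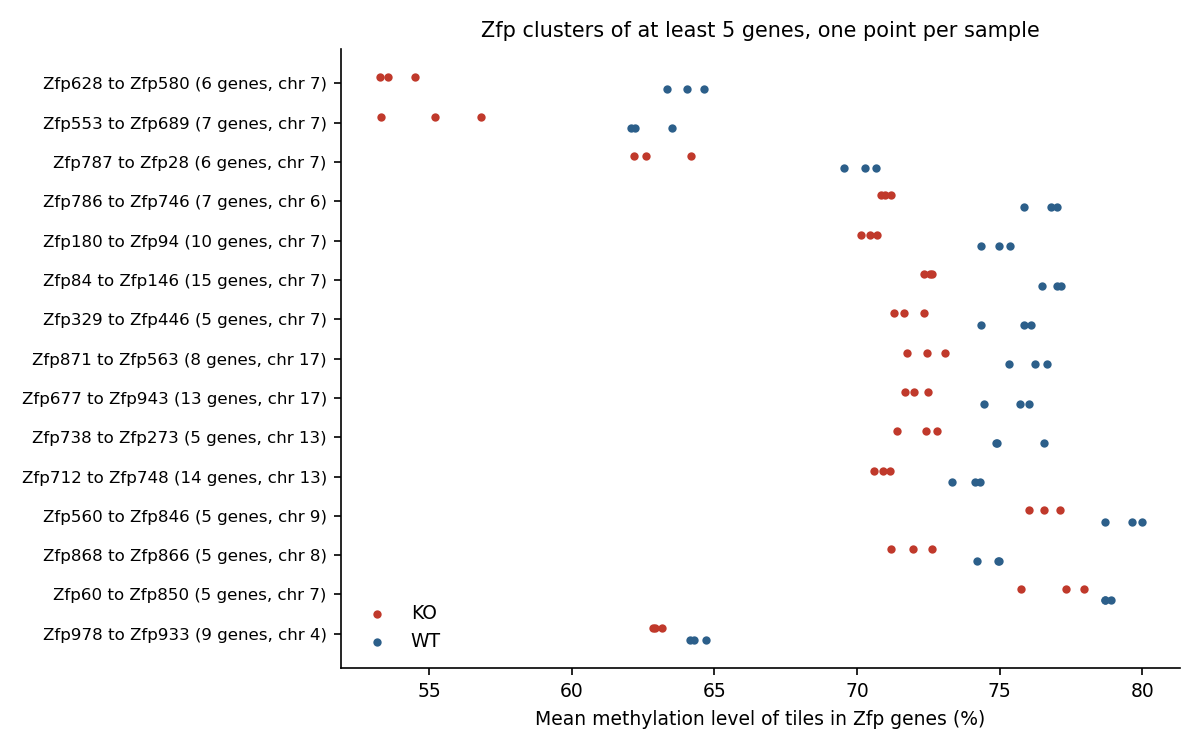
Mean methylation level (percent) of the tiles in Zfp genes for each of the 15 clusters of at least 5 genes, ordered by the difference, with one point per sample, KO in red above WT in blue. The KO points lie left of the WT points in every one of these clusters, by 10.2 points in Zfp628 to Zfp580 at the top and by 1.40 points in Zfp978 to Zfp933 at the bottom.

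Among genes known to guard methylation or repeats, several had bodies below the size needed for a call. The body of Zfp57 had 71.4%, 67.9% and 70.6% in the KO samples, against 75.8%, 74.4% and 74.5% in the WT samples, or -4.87 points between the means. Zfp445, which keeps imprints together with Zfp57, had a body at 76.1 ± 1.29% in KO and 77.7 ± 0.596% in WT. Zfp568, a repressor of a placental Igf2 transcript, had one at 80.7 ± 0.877% in KO and 84.7 ± 0.324% in WT. Zfp809, which silences murine leukaemia virus, had 86.6 ± 1.30% in KO and 88.7 ± 0.426% in WT, and Zfp708 had 71.1 ± 0.745% in KO and 75.1 ± 0.583% in WT. None of these 5 bodies was called. Most Zfp bodies were not called either, 212 of 329, beside 7180 of 15364 bodies over all genes. Zfp110, which encodes a factor that binds the neurotrophin receptor, had a body at 92.8%, 95.2% and 93.3% in the KO samples, against 93.1%, 92.5% and 94.6% in the WT samples. The ranges of its genotypes overlapped.

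Genes of other roles were spread over the whole range of levels. Zfp503, a repressor in development, was nearly free of methylation, with a body at 0.542 ± 0.237% in KO and 0.981 ± 0.206% in WT and a far end at 0.644 ± 0.300% in KO and 6.91 ± 1.48% in WT. Its relative Zfp703 held the tile with the largest difference of all Zfp genes, chr8:26980001-26981000, with 3.20%, 0.498% and 0.832% in the KO samples, against 85.3%, 71.8% and 76.4% in the WT samples. The difference was -76.3 points with an adjusted p of 1.05e-10, so that a tile methylated in WT was free of it in KO. Zfp366, a corepressor of nuclear receptors, had a body at 46.1 ± 1.42% in KO and 57.1 ± 0.850% in WT, and Zfp462 one at 68.4 ± 0.954% in KO and 77.0 ± 0.305% in WT. Both bodies were called lower, and that of Zfp462 was not under centring, at -3.81 points, or scaling, at -2.83 points.

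The start of Zfp36 had 6.71 ± 0.676% in KO and 14.5 ± 1.86% in WT, short of the 10-point minimum. The body of Zfp148, which encodes a factor that binds GC-rich promoters, was called with 73.7%, 75.1% and 75.05% in the KO samples, against 79.5%, 80.3% and 80.2% in the WT samples, but was at 0.838 points under scaling and under the minimum without KO replicate 1, at -4.95 points. That of Zfp384, a factor of bone matrix genes, was called at 76.3 ± 1.30% in KO and 81.3 ± 0.926% in WT, was at 1.35 points under scaling and was between -4.66 and -4.49 points without KO replicate 1, KO replicate 2 or WT replicate 3. Bodies of Zfp143, Zfp281, Zfp207, Zfp335, Zfp410, Zfp42, Zfp369 and Zfp932 were not called, with differences between -4.50 and -0.66 points. The far end of Zfp42, known as the pluripotency marker Rex1, was lower, with 64.8 ± 2.14% in KO and 76.9 ± 3.08% in WT, and its adjusted p was 0.0710 under centring and 0.0926 under scaling.

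Only 6 Zfp tiles were called higher in KO, among 1555 in the whole table. The tile with the largest such difference, in Zfp292 at chr4:34832001-34833000, had 68.9%, 78.1% and 67.8% in the KO samples, against 56.7%, 61.2% and 56.7% in the WT samples. The next tile of Zfp292 was also higher, at 74.6% in KO and 63.1% in WT, and the same gene had 14 of its 73 tiles lower. The other 4 were in Zfp978, Zfp536, Zfp976 and the overlapping Zfp174 and Zfp597, each with 1 tile.

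The proteins through which KRAB factors work were looked up as a list of 25 genes, of which 23 were matched. The bodies of 9 of 23 were lower in KO and 0 higher, with a median of -4.27 points, beside the 53.3% and -5.37 points of all genes given above. Cbx5, which encodes the heterochromatin protein HP1 alpha, had 69.1 ± 0.609% in KO and 76.4 ± 0.580% in WT, and Chd3, a chromatin remodeller of the NuRD complex, had 61.4 ± 1.54% in KO and 70.5 ± 0.648% in WT. Both were called, as were Atf7ip, a partner of SETDB1, Pphln1, a subunit of the HUSH complex, and Trim28 itself, with 69.4 ± 1.62% in KO and 75.2 ± 1.35% in WT. Setdb1 was not called, at 85.0 ± 0.824% in KO and 87.4 ± 1.10% in WT. Starts were lower in 1 of 21, far ends in 4 of 21 and distal segments in 4 of 20, beside 17.4%, 20.8% and 46.5% of all genes. Other families of zinc finger genes gave different counts, with 20 of 27 bodies lower among Zbtb genes, at a median of -8.97 points, and 9 of 22 among Zscan and Zkscan genes, at -4.37 points. The olfactory receptor genes, another family in tandem clusters, had 6 of 46 bodies lower, at -1.55 points. Only these 46 of the 1100 olfactory receptor genes had a body value. Their starts were lower in 17 of 898 and their far ends in 17 of 909 genes.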

How the data were processed

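Lung endothelial DNA of 3 KO and 3 WT samples went through tagmentation-based bisulfite sequencing of the whole genome. Per the labels' protocols, each sample took 30 ng of DNA and 3 libraries, read from both ends over 100 bases. The submitters' processing notes name BWA 0.7.8 and the mm10 build. The authors deposited, per the file headers, 1 methylation fraction for every 1 kb tile of a sample. The caller, any smoothing, a coverage filter and the choice of tiles were not given in the sources used here. Without read counts, counting intervals and floors could not be had and depths could not be compared.

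Fractions were multiplied to percent. The design named a logistic model for counts, and since the table holds levels only, limma 3.58.1 (R 4.3.3) with a variance trend was used, as written there for that case. It was fitted over all tiles or all protein-coding genes with Benjamini-Hochberg adjustment and tested on simulated data. Bodies needed 3 tiles, segments 2. Gene spans came from RefSeq (GRCm38.p6), and strand from its start sequences at any distance from the gene ends. CG counts used only start sequences within 1000 bp of the gene start. No exons or proteins were used here, so the finger arrays themselves were not located. Genes named are, per feature, the 3 clustered and 3 single called genes with the largest non-overlapping loss, the most positive gene, the 2 largest steps each way, the 4 largest clusters and a fixed list by role. Others (the Zfp37 and Zfp27 starts, leading tiles and genes with most called tiles) were picked after their values were seen. The members and lists were chosen with earlier results of these data known. Counts and medians over the members carry no test. Other steps ran in Python 3.11.15 with pandas 2.3.3, numpy 2.4.6 and, for figures, matplotlib 3.10.9. Alternatives covered the scale, centring, scaling, variance trend, size minimum, windows, tile minimum, cluster distance, symbol rule, replicate block and leaving out each sample.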

Additional observations from a re-analysis of the deposited data

How the results depend on the processing

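Levels come without depth, the overall shift between genotypes cannot be told apart from a difference in scale, and neighbouring tiles are not independent. Centring on the sample median left 838 tiles, 7 starts, 13 far ends, 27 bodies and 19 distal segments of Zfp genes lower in KO, and scaling to one mean level left 813, 12, 15, 25 and 19. The counts over all tiles and genes are given beside these above. The mean body difference of clustered genes, -3.50 points, was 1.39 when centred and 2.83 when scaled, and that of single genes, -5.53 points, was -0.64 and 0.41. It was -5.11 points with a cluster distance of 50 kb. Without a minimum difference 112 starts, 101 far ends and 208 bodies were lower, with no shares of all genes at that setting given here. Leaving out each sample in turn gave 1534 to 1753 tiles, 26 to 30 starts, 38 to 48 far ends, 109 to 126 bodies, 57 to 72 distal segments, 7 to 13 steps, and mean body differences of -3.95 to -3.15 points in clustered and -5.79 to -5.32 points in single genes. The count of 18 steps was 8 on the M value scale, and the 7 was without WT replicate 2. Over all tiles and genes, leaving out each sample gave 243872 to 288387 tiles, 2748 to 2969 starts and 3303 to 3585 far ends lower. Bodies were then lower in 7860 to 8407 of all genes and distal segments in 5068 to 5542. The step was lower in 267 to 344 of all genes and higher in 446 to 613. Leaving out the 4 genes in which a sample stood apart, an alternative added after seeing the data, gave -3.83 points in clustered genes and counts of 28, 41, 117 and 67. Named genes that turned sign were the Zfp932 start without KO replicate 3 (-3.37 points, against up to 36.8 without another sample), the Zfp971 far end and distal segment without WT replicate 2 (-5.29 and -3.71 points, against up to 40.7 and 42.8 without another sample) and the Zfp148 and Zfp384 bodies when scaled (0.838 and 1.35 points). The cause was not tested. Deviations of same-numbered samples correlated at -0.00321 to 0.0110 across tiles. With 3 samples per group and noise in each tile, this cannot tell whether the samples were paired, so pairing is unknown. With the replicate block the counts were 1838 tiles, 28 starts, 41 far ends, 115 bodies, 68 distal segments and 9 steps.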
